A study of Homo sapiens with 9 samples.

Results

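The feedback inhibitors of WNT signaling are genes that the pathway switches on and whose products hold it back, and 10 of them were followed here: AXIN2, NKD1, NKD2, NOTUM, DKK1, DKK4, APCDD1, WIF1, SP5 and CXXC4. They were chosen by name from the known biology of the pathway, but with earlier results of these data known. Shares called among them are therefore a description. All 10 were found by their Ensembl identifiers among the 63677 genes that the count files list. Poly(A) RNA of the human colon adenocarcinoma line SW480 and of a pair of derived lines that express BASP1, a membrane and nuclear protein absent or scarce in SW480, was sequenced as 3 stranded libraries per line. SW480 is the unmodified parental line, with constitutively active WNT signaling. SW480-B is 1 clone, selected with geneticin after transfection of pcDNA3-BASP1, which holds the BASP1 coding sequence behind a cytomegalovirus promoter. SW480-gRNA-B-all was made in 3 lentiviral steps that brought in MS2-P65-HSF1, dCas9-VP64 with a clone selected for it, and the pooled sgRNAs to the promoter of the endogenous BASP1 gene. Lines that carry the vectors without BASP1 were not analysed here, so that BASP1, the vectors and the choice of a clone cannot be told apart. The replicates of a line are separate RNA samples, but the sources do not say whether they came from separate cultures, and p-values therefore measure only the spread between these samples.

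In WNT signaling, a secreted WNT protein binds Frizzled and LRP receptors, Dishevelled is recruited, and the complex that destroys β-catenin is halted. β-catenin then enters the nucleus and activates genes together with TCF/LEF factors, which recognize a short element with the core CTTTG. Some of the activated genes encode inhibitors that act at every level of the route: on the ligand (NOTUM, WIF1), on the coreceptor (DKK1, DKK4), at the membrane (APCDD1), on Dishevelled (NKD1, NKD2, CXXC4), on β-catenin (AXIN2) and on target promoters (SP5). In the colon, AXIN2 is widely used as a readout of the pathway, and tumors with a damaged APC gene, as in SW480, keep such genes active.

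Levels are given as CPM, the counts on a gene set to a common library total, after scaling by edgeR's TMM method over the 9 libraries, which held 25238831 to 29355669 counts each. A floor of 3 counts corresponds to 0.1 to 0.116 CPM and covers counting error only. BASP1 itself had 11.9, 8.03 and 0.691 CPM in SW480 replicates 1, 2 and 3, 268, 268 and 250.3 CPM in SW480-B, and 167, 303 and 300.1 CPM in SW480-gRNA-B-all. Against SW480, BASP1 had a log2 fold change of 5.21 in the SW480-gRNA-B-all line (SE 0.92, adjusted p = 0.025 by edgeR, Benjamini-Hochberg) and of 5.29 in SW480-B (SE 0.85, adjusted p = 0.029). Each call held in 2 of 6 fits that left out 1 library, those without SW480 replicate 1 (5.87 and 5.93) or replicate 3 (4.71 and 4.76). The SW480 libraries were not alike, with over 2-fold differences between replicates 1 and 3 in 24.1% of genes, whereas in SW480-gRNA-B-all replicates 2 and 3 differed so in 0.0302%. The latter pair still differed by more than sampling noise (chi-square per gene 3.39, where sampling alone gives about 1), against 96.3 to 369 in the other pairs of replicates. An excess over sampling noise does not show that the 2 are independent. They were kept as 2 samples, and calls with them summed are given below. Of 12 markers of colon epithelium, 7 or 8 reached 1 CPM in each line, and they summed to 8329 to 10975 CPM in SW480, 6992 to 11359 in SW480-B and 6331 to 7805 in SW480-gRNA-B-all. KRT20, CDX1, LGALS4 and GPA33 had means under 1 CPM in every line. Against SW480, 3 of 8 tested were called lower in SW480-gRNA-B-all (VIL1, CDX2 and CDH17), where 4.66% of all genes tested were. There 6 of 8 were lower with no overlap, as were 20% of all genes tested. In SW480-B 2 of 9 were called lower (VIL1 and CDH17), where 1.25% of all genes were. Between the BASP1-expressing lines 1 of 7 was lower (CDX2), where 4.37% of all genes were. VIL1, an actin-binding protein of the brush border, had 344, 308 and 98.8 CPM in SW480, 29.6, 35.9 and 30.3 in SW480-B and 21.5, 6.81 and 6.34 in SW480-gRNA-B-all (adjusted p = 0.025 and 0.019 against SW480, edgeR; called in 2 and 3 of 6 fits without 1 library). CDX2, an intestinal homeobox factor, had 30.4, 30.7 and 41.9 CPM in SW480, 58.6, 67.4 and 58.2 in SW480-B and 5.52, 2.7 and 2.37 in SW480-gRNA-B-all (adjusted p = 0.009 against SW480, 3 of 6 fits, and 0.00099 against SW480-B, 6 of 6 fits). CDH17, an intestinal cadherin, had 531, 179 and 45 counts in SW480 and 0 in every library of the derived lines (called in 2 of 6 fits without 1 library in each). It passed the filter on low counts only through SW480, so it could only be called lower. The part of these markers in the inhibitors' values was not tested. Markers of fibroblasts summed to at most 10.9 CPM in any library (COL3A1 at 0 in all 9), and 5 markers of immune and endothelial cells to 1.1 to 3.02 CPM in SW480, 3.04 to 3.98 in SW480-B and 4.44 to 5.15 in SW480-gRNA-B-all. PTPRC and CD3E, which define leukocytes and T cells, were at 0 in all libraries of SW480-gRNA-B-all. VWF, an endothelial protein, had 0.689 to 0.896 CPM in SW480, 1.38 to 3.01 in SW480-B and 1.67 to 4.34 in SW480-gRNA-B-all, above SW480 in every library of the derived lines (adjusted p = 0.071 for the latter line, edgeR). CD14, a monocyte protein, had means of 0.739, 0.48 and 1.97 CPM in these lines (adjusted p = 0.27), and the part of both in the inhibitors' results was not tested. In bulk RNA, fewer cells with a transcript and less of it per cell cannot be told apart.

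Promoter sequences are shown for 3 inhibitors that differ in their TCF/LEF cores, of which SP5 and APCDD1 were called lower in SW480-gRNA-B-all and DKK1 was not. RefSeq windows of GRCh38.p14, the 250 bases before the annotated start, were given for 6 of the 10 genes (NKD2, DKK1, APCDD1, WIF1, SP5 and CXXC4), and both strands were searched for CTTTG and for the longer CTTTGAT and CTTTGTT, which contain it and count toward it. Capitals mark the matches, and CAAAG is a match on the other strand. The SP5 window is at chr2:170715087-170715336 on the plus strand, that of DKK1 at chr10:52314031-52314280 on the plus strand and that of APCDD1 at chr18:10454385-10454634 on the plus strand.
SP5: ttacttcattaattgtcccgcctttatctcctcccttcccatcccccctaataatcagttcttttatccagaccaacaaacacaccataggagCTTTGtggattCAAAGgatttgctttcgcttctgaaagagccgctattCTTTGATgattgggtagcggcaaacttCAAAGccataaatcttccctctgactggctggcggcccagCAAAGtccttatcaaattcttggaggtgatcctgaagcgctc
DKK1: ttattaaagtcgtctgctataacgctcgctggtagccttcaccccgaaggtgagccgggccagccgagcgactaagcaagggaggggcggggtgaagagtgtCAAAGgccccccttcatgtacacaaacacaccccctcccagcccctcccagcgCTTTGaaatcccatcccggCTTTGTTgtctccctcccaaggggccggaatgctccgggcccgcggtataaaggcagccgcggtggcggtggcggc
APCDD1: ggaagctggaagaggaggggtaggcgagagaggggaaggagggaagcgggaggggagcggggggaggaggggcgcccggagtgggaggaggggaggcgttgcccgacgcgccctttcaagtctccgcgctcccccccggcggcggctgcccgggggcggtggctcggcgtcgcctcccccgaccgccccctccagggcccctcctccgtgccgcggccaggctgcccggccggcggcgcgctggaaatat

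The SP5 window held 5 matches to CTTTG, and 1 of them, from 109 to 103 bases before the start, extended to CTTTGAT. Of 35116 RefSeq windows of the same length, 42.1% held CTTTG at all, 0.0854% held at least 5 matches, and 2.26% held CTTTGAT. DKK1 had 3 matches, where 2.83% of windows had at least 3, and 1 of them extended to CTTTGTT between 76 and 70 bases before the start, a word found in 4.5% of windows. WIF1 had 1 match, and none of these letters stood in the windows of NKD2, APCDD1 and CXXC4. The SP5 window was also poor in CpG, with 6 of them and 45.6% GC, against a median of 11 CpG and 58% GC over all windows. APCDD1 had 29 CpG and 77.2% GC. A match is a description of letters and was not tested as a binding site.

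Transcript levels of different genes were compared per length, as CPM per kb of the canonical transcript. In SW480, APCDD1 had the highest mean level per length, 258 ± 113 CPM per kb (SD, n = 3), followed by AXIN2 at 128 ± 18 and NOTUM at 121 ± 41.4. SP5 had 68 ± 4.74 and NKD1 48.1 ± 22.6 CPM per kb. For NKD1 the count was divided by a canonical transcript of 17039 bases, far longer than the 4260 of AXIN2, so that its place is lower per length than in CPM. Whether the deposited counts were made over the same transcript is not given, and this place depends on it. NKD2, DKK1 and DKK4 followed with 15.3 ± 13.9, 14 ± 1.7 and 10.2 ± 2.57 CPM per kb, and these 3 did not differ beyond their spread. AXIN2 and NOTUM overlapped as well (115 to 149 and 90 to 168 CPM per kb), as did SP5 and NKD1, whereas APCDD1 (177 to 387 CPM per kb) lay above both AXIN2 and NOTUM in every SW480 library. CXXC4 (0.257 ± 0.216 CPM per kb) and WIF1 (0.0123 ± 0.0212) were barely present. Summed over the 10 genes, the level per length was 573 to 750.3 CPM per kb in the SW480 libraries, 364 to 523 in SW480-B and 77.8 to 159 in SW480-gRNA-B-all, and these ranges do not overlap. The share of NOTUM in this sum was 12% to 25.2% in SW480 and 5.75% to 8.3% in SW480-B, and that of AXIN2 18.2% to 20% and 23.5% to 35%.

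**Figure D1:**
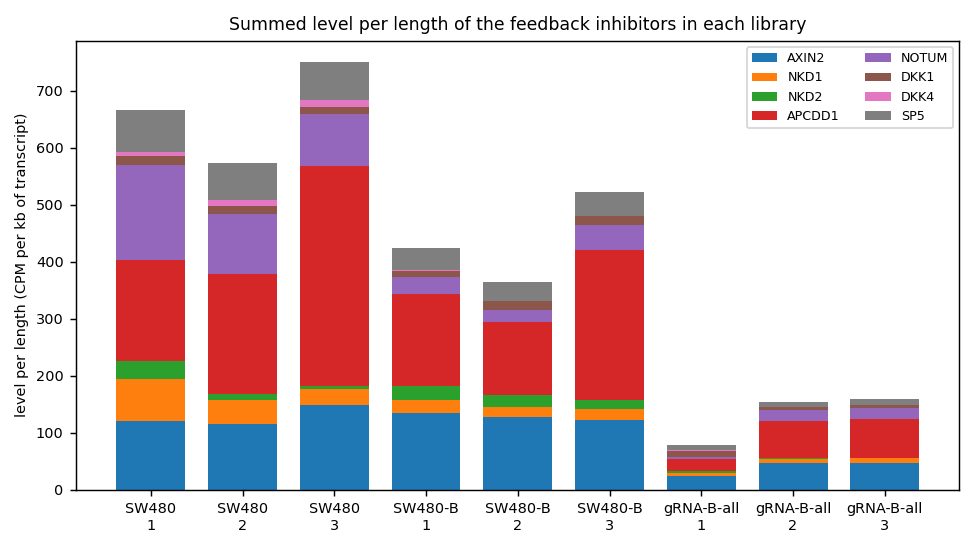
Stacked bars show, for each of the 9 libraries (horizontal axis, line and replicate), the level per length of the inhibitors in CPM per kb of transcript. WIF1 and CXXC4 are too low to draw. The SW480-gRNA-B-all bars reach 77.8 to 159 CPM per kb and the SW480 bars 573 to 750.3, and APCDD1 takes 26.5% to 51.6% of the SW480 bars.

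Lines were compared in pairs with edgeR's quasi-likelihood test, and p-values were adjusted by the Benjamini-Hochberg method over all genes tested. A call needed an adjusted p under 0.05 together with a change above 2-fold, and every adjusted p below is from this test unless another is named. Comparing SW480-gRNA-B-all with SW480 asks how the inhibitors stood after activation of the endogenous BASP1 gene. Of the 10 inhibitors, 8 had enough counts to be tested. Called lower were 6 of the 8 (AXIN2, NKD1, NOTUM, DKK4, APCDD1 and SP5), where 4.66% of all 16100 genes tested were called lower. None was called higher, where 1.89% of all genes were, and none was higher at an unadjusted p under 0.05 or by DESeq2. The median log2 fold change of the 8 was -2.83 (-2.75 without DKK4), beside -0.054 over all genes tested. All 8 had every SW480-gRNA-B-all library below every SW480 library, an arrangement seen in 20% of all genes tested. DKK4 passed the filter on low counts only through SW480, and 5 of the 7 others were called. DESeq2, run on a wider set of genes, called 8 of the inhibitors lower, these 6 with NKD2 and CXXC4.

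Comparing SW480-B with SW480 asks the same of ectopic BASP1. Called lower were 2 of 8 tested inhibitors, NOTUM and DKK4, where 1.25% of 16106 genes were, and none was called higher, where 0.0931% of genes were. DKK4 passed the filter on low counts only through SW480 here too, and 1 of the 7 others, NOTUM, was called (adjusted p = 0.049). A fit with a block for the replicate number called 56 genes higher in place of 15, and the inhibitors' calls were those of the fit without it. None of the inhibitors was higher at an unadjusted p under 0.05 or by DESeq2, and DESeq2 called 4 lower, NOTUM and DKK4 with NKD1 and CXXC4. The median log2 fold change of the 8 was -0.61 (-0.44 without DKK4), beside -0.004 over all genes tested, with 5 below 0 and 3 above. In the direct comparison of SW480-gRNA-B-all with SW480-B, 5 of 7 tested inhibitors were called lower (AXIN2, NKD1, NKD2, APCDD1 and SP5), where 4.37% of 15846 genes were, and none was called higher, where 2.31% of genes were. For all 7, every SW480-gRNA-B-all library lay below every SW480-B library, as was the case for 15.4% of all genes tested. None was higher at an unadjusted p under 0.05 or by DESeq2, which called the same 5 lower. The median log2 fold change was -1.71, beside -0.004 over all genes. The 3 comparisons share their libraries pairwise, and their values are therefore set side by side and not counted together.

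**Figure D2:**
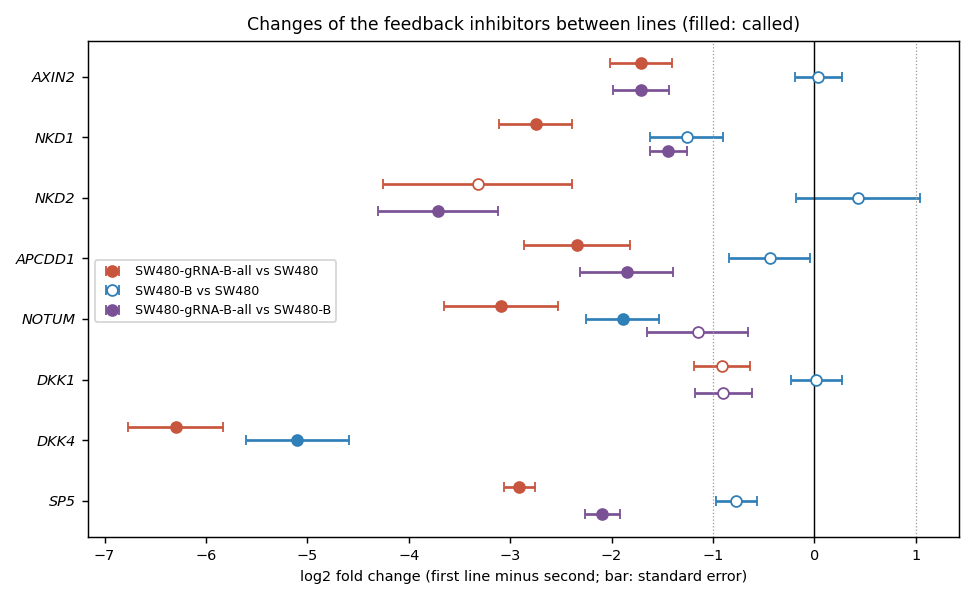
Points show the log2 fold change of each tested inhibitor (first line minus second, horizontal axis) in the 3 comparisons, with standard errors as bars. Filled points were called, and dotted lines mark a 2-fold change. All points of SW480-gRNA-B-all against SW480 lie left of 0, whereas those of AXIN2, NKD2 and DKK1 for SW480-B against SW480 lie between 0.02 and 0.43.

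AXIN2 (ENSG00000168646, GRCh37 chromosome 17, 63524681 to 63557766, minus strand) encodes the inducible scaffold of the β-catenin destruction complex. Its level was 517, 488 and 633 CPM in SW480, 575, 543 and 523 CPM in SW480-B, and 99, 202 and 202 CPM in SW480-gRNA-B-all. SW480 and SW480-B overlapped, and the 3 SW480-gRNA-B-all libraries lay well below both. AXIN2 fell 3.27-fold from SW480 to SW480-gRNA-B-all (log2 fold change -1.71, SE 0.31, adjusted p = 0.026). For SW480-B against SW480 its log2 fold change was 0.04 (SE 0.23, adjusted p = 0.95). Directly compared, the lines with BASP1 differed in AXIN2 by a log2 fold change of -1.71, with SW480-gRNA-B-all the lower (SE 0.28, adjusted p = 0.01), a call that held in all 6 fits without 1 library. The call against SW480 held in only 2 of 6, since leaving out SW480 replicate 2 or any SW480-gRNA-B-all library gave adjusted p of 0.0523 to 0.099, with log2 fold changes of -1.86 to -1.43 over the 6. Its exons share 1316 bases with an overlapping gene of the same strand that has 0 to 5 counts in a library. Reads on the shared bases may have been set aside as ambiguous, and their part in the AXIN2 level was not tested.

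The naked cuticle genes NKD1 and NKD2 encode proteins that bind Dishevelled. NKD1 (ENSG00000140807, chromosome 16, 50582307 to 50683160) had 1245, 722 and 493 CPM in SW480, 389, 295 and 317 CPM in SW480-B, and 109, 127 and 133 CPM in SW480-gRNA-B-all. The lines did not overlap and stood in that order, although the SW480 libraries themselves spread 2.52-fold. NKD1 fell 6.7-fold from SW480 to SW480-gRNA-B-all (log2 fold change -2.75, SE 0.36, adjusted p = 0.013) and 2.72-fold from SW480-B (-1.44, SE 0.18, adjusted p = 0.0039). The latter call held in all 6 fits without 1 library and the former in 2 of 6, with adjusted p of 0.061 to 0.07 without SW480 replicate 2 or any SW480-gRNA-B-all library. From SW480 to SW480-B its log2 fold change was -1.26 (SE 0.36) with an adjusted p of 0.16, and 0.083 with the replicate block. DESeq2 gave an adjusted p of 0.022 for it.

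NKD2 (ENSG00000145506, chromosome 5, 1008917 to 1039058) was the most uneven of the inhibitors with over 1 CPM in each line. It had 67.3, 23.7 and 8.91 CPM in SW480, 51.1, 46.6 and 33.6 CPM in SW480-B, and 6.91, 1.27 and 1.87 CPM in SW480-gRNA-B-all. SW480 and SW480-B overlapped, and SW480 replicate 3 came close to SW480-gRNA-B-all replicate 1. Against SW480 the log2 fold change of SW480-gRNA-B-all was -3.32 (SE 0.93) and did not pass the test (adjusted p = 0.072), whereas without SW480 replicate 3 it did (-3.74, adjusted p = 0.029). The other 5 fits without 1 library did not call it (adjusted p = 0.087 to 0.22), and the log2 fold change ran from -4.4 without SW480-gRNA-B-all replicate 1 to -2.29 without SW480 replicate 1. Against SW480-B, where the libraries spread 1.52-fold, NKD2 fell 13.1-fold (log2 fold change -3.71, SE 0.59, adjusted p = 0.0092), and it was called in all 6 fits without 1 library. Without SW480-gRNA-B-all replicate 1 this log2 fold change was -4.78. SW480-B and SW480 differed by a log2 fold change of 0.43 (SE 0.61, adjusted p = 0.77).

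CXXC4 (ENSG00000168772, chromosome 4, 105389465 to 105416058), also known as IDAX, encodes a zinc finger protein that binds Dishevelled. It had 78, 38 and 8 counts in the SW480 libraries and 0 counts in each of the 6 others. Against a floor of 3 counts over a line, CXXC4 was at least 43.2-fold lower in SW480-gRNA-B-all and at least 39.7-fold lower in SW480-B than in SW480. These bounds are 24.3-fold and 22.3-fold without SW480 replicate 1, which holds most of the counts. The filter on low counts kept CXXC4 out of the test. With no filter, its adjusted p was 0.016 for SW480-gRNA-B-all and 0.00044 for SW480-B against SW480. CXXC4 entered these fits only through its SW480 counts, so it could only come out lower. No difference between the BASP1-expressing lines was detectable at this depth.

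**Figure D3:**
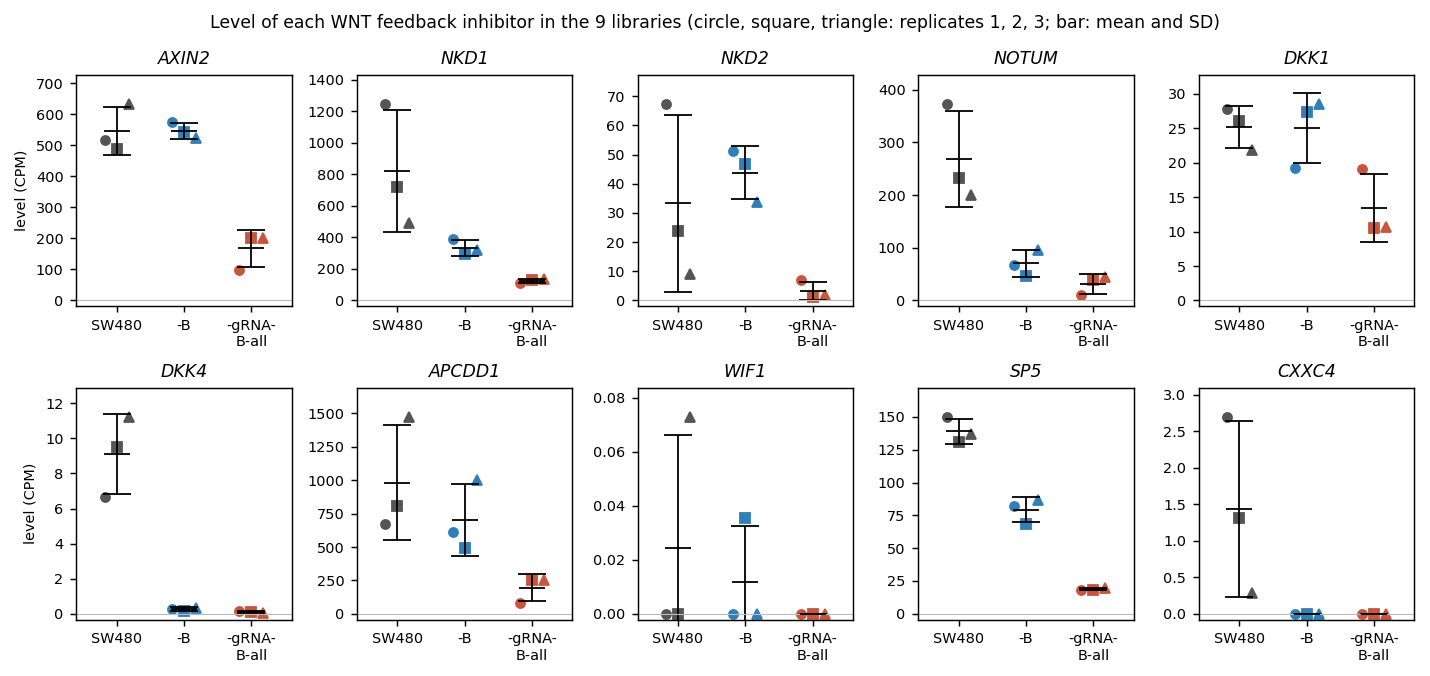
Each panel shows 1 inhibitor, with its level in CPM (vertical axis, from 0, scaled per gene) in the libraries of the 3 lines, where circles, squares and triangles are replicates 1, 2 and 3 and bars the mean and SD. AXIN2, NKD2 and DKK1 overlap between SW480 and SW480-B and are lower in SW480-gRNA-B-all. DKK4 and CXXC4 are near or at 0 in both derived lines, and WIF1 has at most 2 counts in any library.

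APCDD1 (ENSG00000154856, chromosome 18, 10454632 to 10489946) encodes a membrane glycoprotein that binds WNT and LRP proteins. It had 673, 804 and 1471 CPM in SW480, 616, 489 and 1005 CPM in SW480-B, and 78.3, 251 and 256 CPM in SW480-gRNA-B-all. Replicate 3 was the highest in both SW480 and SW480-B, which overlapped, and SW480-gRNA-B-all lay below both. APCDD1 fell 5.06-fold from SW480 to SW480-gRNA-B-all (log2 fold change -2.34, SE 0.52, adjusted p = 0.043) and 3.61-fold from SW480-B (-1.85, SE 0.46, adjusted p = 0.044). Neither call was stable with 1 library left out, although the log2 fold change stayed between -2.57 and -1.9 for the first and between -2.09 and -1.46 for the second. The first held in 2 of 6 fits without 1 library and was lost (adjusted p of 0.079 to 0.13) without SW480 replicate 2 or any SW480-gRNA-B-all library, and the second held only without SW480-gRNA-B-all replicate 1, with adjusted p up to 0.11 otherwise. From SW480 to SW480-B its log2 fold change was -0.44 (SE 0.4, adjusted p = 0.63).

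NOTUM (ENSG00000185269, chromosome 17, 79910383 to 79919716, minus strand) encodes a secreted enzyme that removes the lipid WNT proteins need for receptor binding. It had 373, 233 and 200.1 CPM in SW480, 68, 46.6 and 96.5 CPM in SW480-B, and 10.3, 39.8 and 45 CPM in SW480-gRNA-B-all. Both BASP1-expressing lines lay below SW480, with SW480-gRNA-B-all replicate 1 the lowest. NOTUM fell 8.52-fold in SW480-gRNA-B-all (log2 fold change -3.09, SE 0.56, adjusted p = 0.027) and 3.71-fold in SW480-B (-1.89, SE 0.36, adjusted p = 0.049). The call for SW480-B held in 1 of 6 fits without 1 library, with adjusted p up to 0.26 without SW480-B replicate 1, and that for SW480-gRNA-B-all in 3 of 6, with adjusted p up to 0.1 without SW480 replicate 2. The lines with BASP1 differed from each other by a log2 fold change of -1.15 (SE 0.5), which did not pass the test (adjusted p = 0.2).

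The Dickkopf proteins DKK1 and DKK4 block the LRP coreceptors from outside the cell. DKK4 (ENSG00000104371, chromosome 8, 42231581 to 42234747, minus strand) had 6.68, 9.48 and 11.2 CPM in SW480, from 194, 275 and 309 counts. In SW480-B 7, 4 and 10 counts remained, and in SW480-gRNA-B-all 5, 3 and 2 counts. No library of either BASP1-expressing line came near the SW480 range. DKK4 passed the filter on low counts only through SW480, so it could only be called lower. The size of its fall rests on the few counts left in the derived lines. By the fit, DKK4 fell 78.9-fold in SW480-gRNA-B-all (log2 fold change -6.3, SE 0.47, adjusted p = 0.0048) and 34.2-fold in SW480-B (-5.1, SE 0.51, adjusted p = 0.0094). The first call held in 5 of 6 fits without 1 library (adjusted p = 0.0501 without SW480 replicate 2) and the second in 4 of 6 (adjusted p up to 0.13, without SW480-B replicate 1). The derived lines overlapped at these few counts and were not tested against each other.

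DKK1 (ENSG00000107984, chromosome 10, 54074041 to 54077802), whose promoter with 3 cores is printed above, had 27.8, 26 and 21.8 CPM in SW480, 19.2, 27.3 and 28.5 CPM in SW480-B, and 19.1, 10.5 and 10.7 CPM in SW480-gRNA-B-all. SW480 and SW480-B overlapped, and replicate 1 of SW480-gRNA-B-all stood just under both. The log2 fold change of SW480-gRNA-B-all was -0.91 against SW480 (SE 0.28, adjusted p = 0.094) and -0.9 against SW480-B (SE 0.28, adjusted p = 0.094), and neither passed the test. Without SW480-gRNA-B-all replicate 1, the second did (-1.22, adjusted p = 0.027). Between SW480-B and SW480 the log2 fold change was 0.02 (SE 0.25, adjusted p = 0.97). WIF1 (ENSG00000156076, chromosome 12, 65444406 to 65515085, minus strand), a secreted protein that binds WNT ligands, had 2 counts in SW480 replicate 3, 1 count in SW480-B replicate 2 and 0 counts in the 7 other libraries. A difference in WIF1 was not detectable at this depth.

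SP5 (ENSG00000204335, chromosome 2, 171571847 to 171574588), a zinc finger factor that represses WNT target genes, varied little between replicates, by at most 1.27-fold within a line. It had 149.7, 131 and 137 CPM in SW480, 82, 68.6 and 87 CPM in SW480-B, and 18.4, 18 and 19.5 CPM in SW480-gRNA-B-all. The lines formed 3 separate levels. SP5 fell 7.5-fold from SW480 to SW480-gRNA-B-all (log2 fold change -2.91, SE 0.15, adjusted p = 0.0028) and 4.26-fold from SW480-B (-2.09, SE 0.17, adjusted p = 0.00099). Both calls held in all 6 fits without 1 library. From SW480 to SW480-B its log2 fold change was -0.77 (SE 0.2) and did not pass the test (adjusted p = 0.13, and 0.084 with the replicate block).

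**Figure D4:**
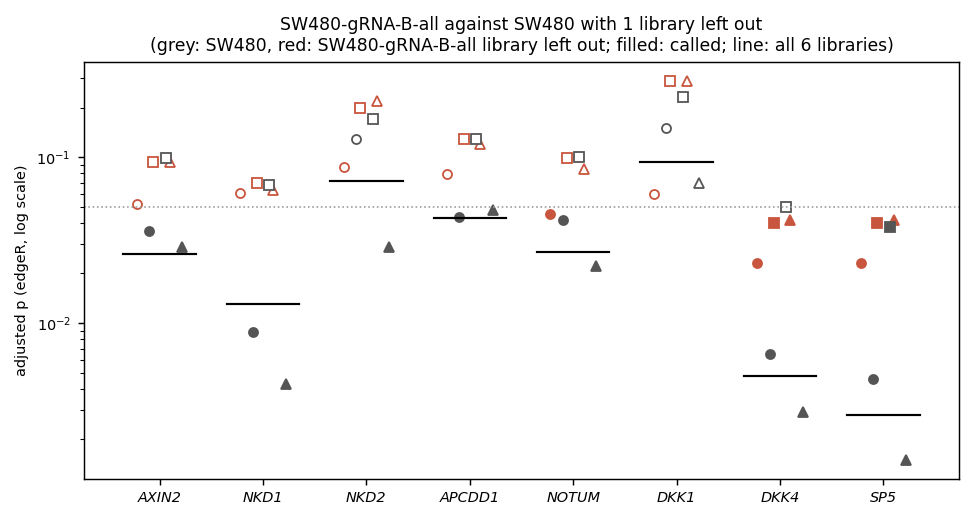
Adjusted p (vertical axis, log scale) of each tested inhibitor for SW480-gRNA-B-all against SW480, with 1 library left out per point, the fit over all 6 libraries as a black line and 0.05 as a dotted line. Grey marks a left-out SW480 and red a left-out SW480-gRNA-B-all library, and filled points were called. SP5 stays below 0.05 in all 6 fits and DKK4 in 5, whereas AXIN2, NKD1 and APCDD1 do so in 2.

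The spread between libraries of a line did not run the same way for all inhibitors. Within SW480, replicate 1 had the highest and replicate 3 the lowest level of NKD1, NKD2, NOTUM, DKK1 and CXXC4, as of BASP1, whereas DKK4, APCDD1 and AXIN2 were highest in replicate 3. Within SW480-gRNA-B-all, replicate 1, with the least BASP1, had the least AXIN2, NKD1, NOTUM and APCDD1 and the most NKD2, DKK1 and DKK4. The part of the BASP1 level in these differences was not tested. When replicates 2 and 3 of the SW480-gRNA-B-all line were added up as a single library, 2 inhibitors were called against SW480, DKK4 and SP5 (adjusted p = 0.036 for each), and 4 against SW480-B, without APCDD1 (adjusted p = 0.093).

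Genes with related roles were set beside the inhibitors in lists, of which 6 members of the paralog list also stand in another. Over all genes tested, 4.66% were called lower and 1.89% higher in SW480-gRNA-B-all against SW480. These shares were 1.25% and 0.0931% in SW480-B against SW480, and 4.37% and 2.31% between the BASP1-expressing lines. Of 14 paralogs of the inhibitors, 9 were tested and none was called in any comparison, by edgeR. At an unadjusted p under 0.05, 1 of them was lower in each comparison and 1 higher between the BASP1-expressing lines, and DESeq2 called 1 lower in SW480-gRNA-B-all and 2 lower in SW480-B against SW480 and none between the lines with BASP1. The median log2 fold change of the paralogs was -0.14 for SW480-gRNA-B-all and 0.01 for SW480-B against SW480, and -0.1 between the latter lines. AXIN1, the constitutive partner of AXIN2, had a mean of 74.3 ± 24.6 CPM in SW480, 73.3 ± 11.6 in SW480-B and 51 ± 18.8 in SW480-gRNA-B-all (SD, n = 3). From SW480 to SW480-gRNA-B-all the log2 fold change of AXIN1 was -0.55 (SE 0.33, adjusted p = 0.31). The difference between AXIN2 and AXIN1 in their change was not tested.

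Of 30 other WNT antagonists, 18 were tested against SW480. In SW480-gRNA-B-all 3 were called lower, where 4.66% of all genes tested were. None was called higher (3 at an unadjusted p under 0.05, and 2 by DESeq2), and the median log2 fold change was -0.37. ZNRF3, a ubiquitin ligase that removes Frizzled from the membrane, fell 2.66-fold (adjusted p = 0.016) and TLE3, a corepressor of TCF factors, 2.52-fold (adjusted p = 0.0086) (edgeR, Benjamini-Hochberg). SOSTDC1, a secreted antagonist, had 50, 72 and 36 counts in SW480 and 1, 3 and 6 in SW480-gRNA-B-all, and was called lower (adjusted p = 0.017). It passed the filter on low counts only through SW480, as in the comparison with SW480-B, so no fold change is given. RNF43, the partner of ZNRF3, had a log2 fold change of -0.55 (SE 0.31, adjusted p = 0.29). In fits without 1 library, ZNRF3 and SOSTDC1 were called in 2 of 6 and TLE3 in 3 of 6. Like those of AXIN2 and NKD1, the calls of ZNRF3 and SOSTDC1 were lost without SW480 replicate 2 or any SW480-gRNA-B-all library. In SW480-B, where 1.25% of all genes tested were called lower, 1 antagonist was, SOSTDC1, with 3, 1 and 4 counts there (adjusted p = 0.025, 2 of 6 fits). None was called higher (3 at an unadjusted p under 0.05, and 2 by DESeq2). Between the BASP1-expressing lines, 1 of 17 tested was lower in SW480-gRNA-B-all, TLE4 (3.08-fold, adjusted p = 0.0095, 6 of 6 fits), where 4.37% of all genes were. TLE4 had means of 7.58 CPM in SW480, 24.5 in SW480-B and 7.98 in SW480-gRNA-B-all. Called higher was 1, CTNNBIP1, which binds β-catenin (2.56-fold, adjusted p = 0.012, 4 of 6 fits), where 2.31% of all genes were.

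Of the 16 genes of the destruction complex and its ligase, 1 was called in SW480-gRNA-B-all against SW480, where 4.66% of all genes tested were called lower. It was AMER1, a membrane-bound APC partner, which fell 3.67-fold (adjusted p = 0.0096, 2 of 6 fits without 1 library). None was called between SW480-B and SW480 or between the BASP1-expressing lines (edgeR), where 2 each were lower at an unadjusted p under 0.05 and DESeq2 called 1 and 0. The median log2 fold changes of this list were -0.15, 0 and -0.14 in the 3 comparisons in the order above. β-catenin itself, CTNNB1, fell 2.21-fold in SW480-gRNA-B-all (adjusted p = 0.029, 2 of 6 fits) from 1603 ± 157 CPM in SW480, and SW480-B had a log2 fold change of -0.74 for it (SE 0.29, adjusted p = 0.28).

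Of 32 TCF target genes that are not inhibitors, 29 were tested against SW480. SW480-gRNA-B-all had 12 called lower, where 4.66% of all genes tested were, and 1 higher, where 1.89% were. The median log2 fold change of the 29 was -1.33. LGR5, 1 of the 12, had 5, 1 and 2 counts in SW480-gRNA-B-all and passed the filter on low counts only through SW480. TDGF1, another of the 12, had 21, 6 and 9 counts in SW480-gRNA-B-all and 167, 50 and 61 in SW480. TDGF1 also passed only through SW480, so LGR5 and TDGF1 could only be called lower. ASCL2, a stem cell factor of the intestine, fell 12.3-fold (adjusted p = 0.0047, in all 6 fits without 1 library) and PROX1, a homeobox factor, 51.6-fold (adjusted p = 0.0088, 3 of 6 fits). EPHB2, a receptor tyrosine kinase, rose 3.41-fold (adjusted p = 0.036, 2 of 6 fits). In SW480-B against SW480, where 1.25% of all genes tested were called lower, 1 target was, LGR5. It had 433, 278 and 63 counts in SW480 and 0, 1 and 2 in SW480-B (adjusted p = 0.016, 3 of 6 fits). Here too it passed the filter only through SW480. A fit with the replicate block called 2 lower, LGR5 and PROX1, whose log2 fold change was -2.16 with the block (adjusted p = 0.017) and -2.3 without it (SE 0.58, adjusted p = 0.12). None was called higher (2 at an unadjusted p under 0.05, and 1 by DESeq2), and the median log2 fold change was -0.02. Between SW480-gRNA-B-all and SW480-B, 14 of 28 tested were called lower, where 4.37% of all genes tested were. None was called higher (1 at an unadjusted p under 0.05, and 1 by DESeq2), and the median was -1.08. TDGF1, 1 of the 14, passed the filter here only through SW480-B (89, 69 and 96 counts), so it could only be called lower.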

How the data were processed

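Total RNA of 3 lines, 3 replicates each, was made into stranded poly(A) libraries and sequenced on a NovaSeq machine. The authors deposited raw counts per gene, whole numbers without normalization, made on GRCh37 with Ensembl identifiers; metrics headers name STAR, and the counting program and its strand setting are not given in the sources used here. The other deposited values are alignment metrics per library, such as shares of bases, which enter no result here. Lines that name no gene (no feature 5.22% to 9.93%, ambiguous 3.09% to 3.44%) were left out. Symbols were matched for 55665 of 63677 identifiers.

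Each pair of lines was fitted over its 6 libraries with edgeR 4.0.16 in R 4.3.3 (filterByExpr with least count 10 and least total 15, TMM, robust glmQLFit, glmQLFTest, Benjamini-Hochberg over all genes tested), a test first tried on simulated data. DESeq2 1.42.0, on all genes with counts, RLE size factors, other filters, the replicate number as a block, all 9 libraries in 1 fit, left-out libraries, summed libraries and other thresholds were alternatives. Levels per length use canonical GENCODE transcripts on GRCh37, and promoters are RefSeq sequences of GRCh38.p14. The inhibitors and the gene lists were chosen with earlier results of these data known. Named were every inhibitor, BASP1, up to 4 called genes per list, direction and comparison, by size of change and not all of them printed, RNF43, ZNRF3, AXIN1, LGR5 and CTNNB1, and the 5 genes nearest to AXIN2. To see whether equal replicate numbers pair libraries, their departures from the line means were correlated over genes. For SW480-B and SW480 the coefficient was 0.312, 0.441 and 0.403, all above the limit of 0.1 for pairing. The labels do not say what a number marks. For the other pairs of lines it fell below the limit in replicate 2.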

Additional observations from a re-analysis of the deposited data

Results flagged for a closer look

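The BASP1-expressing lines differed from each other in 5 inhibitors, by the direct test of SW480-gRNA-B-all against SW480-B (edgeR's quasi-likelihood test, Benjamini-Hochberg adjustment), which is a test of the difference between both lines' changes from the same SW480 libraries. The log2 fold change was -1.71 for AXIN2 (adjusted p = 0.01), -1.44 for NKD1 (adjusted p = 0.0039), -3.71 for NKD2 (adjusted p = 0.0092), -1.85 for APCDD1 (adjusted p = 0.044) and -2.09 for SP5 (adjusted p = 0.00099). Each was lower in 3 of 3 SW480-gRNA-B-all libraries than in any SW480-B library, where 15.4% of all genes tested were lower without overlap and 4.37% were called lower. The call of APCDD1 held in 1 of 6 fits without 1 library (adjusted p = 0.085 to 0.11 in the others) and was lost with SW480-gRNA-B-all replicates 2 and 3 summed (0.093), and those of the other 4 held in all 6. BASP1 itself differed by a log2 fold change of -0.03 (SE 0.24, adjusted p = 0.95). By the paper's Northern analysis, the ectopic BASP1 transcript of SW480-B is shorter than the endogenous one of SW480-gRNA-B-all. Equal counts on the gene therefore do not mean equal numbers of transcripts. Groups of 3 libraries are too small for a test of single outlying libraries.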

How the results depend on the processing

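No inhibitor changed the direction of a called difference under any alternative run. Of SW480-gRNA-B-all against SW480, 6 inhibitors were called lower, 1 to 8 with 1 library left out (1 without SW480 replicate 2, 8 without SW480 replicate 3), 2 where SW480-gRNA-B-all replicates 2 and 3 were summed and 2 at an adjusted p under 0.01. Of SW480-B against SW480, 2 were called lower, 0 to 4 with 1 library left out (0 without SW480-B replicate 1 or 2, 4 without SW480 replicate 3), 4 with no filter or by DESeq2, 1 with a filter of 1 CPM in 3 libraries, 1 with all 9 libraries in 1 fit and 1 at an adjusted p under 0.01. Of SW480-gRNA-B-all against SW480-B, 5 were called lower, 4 to 6 with 1 library left out, 3 with no filter and 3 at an adjusted p under 0.01. Called higher were 0 inhibitors in all of these fits. The 8 and the 4 called without SW480 replicate 3 include CXXC4, which had 78 and 38 counts in SW480 replicates 1 and 2. With 0 counts in both derived lines, CXXC4 passed the filter there only through SW480 and could only be called lower. Where the cause is not the smaller number of libraries, the cause was not tested. The replicate block gave 7 inhibitors lower in SW480-gRNA-B-all against SW480 (NKD2 added, adjusted p = 0.017, edgeR), 2 in SW480-B against SW480 and 5 between the BASP1-expressing lines, and it changed no other call of an inhibitor. The pairing check was below the limit for the comparisons with SW480-gRNA-B-all (replicate 2: -0.00907 with SW480 and -0.113 with SW480-B). Genes called lower in SW480-gRNA-B-all against SW480 numbered 751, and 7 to 1698 with 1 library left out. In SW480-B against SW480 they numbered 201, and 0 to 695. Depth limits CXXC4, WIF1 and, in the derived lines, DKK4, which had 10 or fewer counts per library there.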

Other observations

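Among 14023 genes with a mean of at least 1 CPM, those whose level ran most like that of AXIN2 over the 9 libraries, by the root mean square difference of log2 CPM centred on each gene's mean, were GJB1 (0.233), FOXN3 (0.277), TNFRSF19 (0.295), LINC01124 (0.299) and MTSS1 (0.307). GJB1, a gap junction protein, had 127 to 143 CPM in SW480, 115 to 159 CPM in SW480-B and 31.4 to 47.6 CPM in SW480-gRNA-B-all. TNFRSF19, a receptor of the TNF family, had 36.9 to 75.4 CPM in SW480, 55.5 to 61.6 CPM in SW480-B and 8.6 to 16.5 CPM in SW480-gRNA-B-all. In both, SW480 and SW480-B overlapped and SW480-gRNA-B-all lay below. Of the inhibitors, APCDD1 came nearest to AXIN2, at place 57 of these genes (0.472), and SP5 followed at place 154 (0.559), whereas NKD2 stood at place 12924 (1.37) and DKK4 at place 13449 (1.55). The measure is not scaled to the size of a change, so a gene that changed more than AXIN2 stands far from it even where the lines keep the same order. The points of these likenesses share libraries and depth, and they are given as a description.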
